A study of Mus musculus with 16 samples.

Results

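Genes of cholesterol synthesis and sterol regulation were followed in the whole brain of male mice, deficient in the transporter Slc5a8 or wild type. The members, 31 genes, were chosen by name, as a list of enzymes of the pathway with its regulators, sterol transporters and 2 fatty acid desaturases, and each was found on the array by its gene name. They were covered by 45 of the 55681 array features, that is the 60-base probes of the array, and by 31 of its 34821 gene names. All 31 genes and all 45 features passed the filter on dim signals, after which 23030 genes were tested. The 4 groups were Slc5a8-deficient mice at 18 months, wild-type mice at 18 months, Slc5a8-deficient mice at 4 months and wild-type mice at 4 months, with 4 arrays each and C57BL/6J given as the strain of all of them. Slc5a8 is a sodium-coupled transporter of lactate, pyruvate, ketone bodies and other monocarboxylates, and the labels do not say how its gene was disrupted or in which cells. The 4 arrays of each group are biological replicates per the design text, which does not describe the animals further, and the p-values reflect only how these samples vary.

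Cholesterol is made from acetyl-CoA in a long series of steps. The mevalonate enzymes build isoprenoid units, squalene is then formed and closed into lanosterol, and the last enzymes of the sterol branch turn lanosterol into cholesterol. The brain makes its own cholesterol because lipoproteins of the blood do not cross the blood-brain barrier, and much of it goes into myelin. When sterols are low, the escort protein Scap carries the transcription factors Srebf1 and Srebf2 out of the endoplasmic reticulum to be cut and activated, and the Insig proteins hold them back when sterols are plentiful.

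Levels are log2 signals relative to the 75th percentile of all features on the same array. Differences are log2 differences with their standard errors from a limma fit of the 4 groups on all 16 arrays (n = 4 for each group). The words rose, fell and called are used where the Benjamini-Hochberg adjusted p over the 23030 genes was under 0.05. The brightest feature of each member was well above background on all 16 arrays, and 0 features of the members were saturated. Between 58.4% and 66.1% of the spots of an array were well above background. The single Slc5a8 feature was above the background limit on 0 of the 16 arrays, with levels of -7.91 to -6.34 in deficient and -7.78 to -6.85 in wild-type brains, so it did not check the genotype labels. The deficient arrays were all on 1 slide and the wild-type arrays all on a second one. Genotype and slide therefore cannot be told apart, and the 18-month and 4-month arrays lay in different rows of a slide. Of the marker lists of neurons, astrocytes, oligodendrocytes, microglia, endothelium and choroid plexus, every gene was well above background on all 16 arrays.

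A single array stood apart. On the first principal component of all genes, which held 29.5% of the variance, replicate 1 of the deficient 4-month group lay at 97.2 and the other 15 arrays between -26.2 and 26.6. That array had the highest level of 12 members and the lowest of 9, so that 21 of the 31 members had an extreme there, against at most 8 on any other array. Mvd (1.11), Cyp46a1 (0.74) and Scap (0.63) lay highest above the mean of the other 3 arrays of its group, on features with 55%, 51.7% and 53.3% G and C. Abca1 (-0.83), Stard4 (-0.76) and Ggps1 (-0.64) lay farthest below it, on features with 35%, 36.7% and 36.7%. Away from these extremes, Nsdhl (0.58) and Dhcr7 (0.39) lay above that mean with 41.7% and 36.7%, and Tm7sf2 (-0.41) below it with 45%. Replicate 2 of the wild-type 18-month group (26.6) and replicate 4 of the wild-type 4-month group (26.1) lay next on that component. Named differences that this first array turns in sign or moves by over 1.5 times are given without it too, and the part of probe composition was not tested.

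Few members were called between genotypes. At 18 months Sc5d, which puts in the C5 double bond of the sterol ring, fell in deficient brains, and 1 of 31 members was called, against 1.48% of all genes. At 4 months Sc5d fell again while Pltp, a phospholipid transfer protein, and Acat2, the first enzyme of the mevalonate route, rose. That made 3 of 31 members called at 4 months, against 1.53% of all genes, but 1 to 2 members when any 1 of the 16 arrays was left out, with Acat2 called in 0 of those 16 fits. With both ages averaged, Sc5d was the 1 member called, against 3.18% of all genes, so this count was near the background.

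More members were lower than higher in deficient brains at 18 months, and more were higher than lower at 4 months, mostly without being called. These were not always the same members: Abca1 was lower at both ages, and Abcg1 and Mvk were higher at both. At 18 months 9 members had positive and 22 had negative differences, with a median of -0.08, where the median of all genes was 0.005. At 4 months 21 were positive and 10 negative, with a median of 0.07 against 0.024 for all genes. Without the array that stood apart 22 were positive and 9 negative at 4 months, with a median of 0.06. The median standard error of a member was 0.12 at each age with all arrays. All 4 deficient arrays lay above all 4 wild-type arrays for 0 members at 18 months and 6 at 4 months, and below them for 3 members and 1 member. Such groups without overlap made up 8.09% of all genes at 18 months and 9.46% at 4 months. With both ages averaged 18 members were positive and 13 negative, but 14 and 17 in the deposited log2 table, so no direction is given for that comparison.

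**Figure D1:**
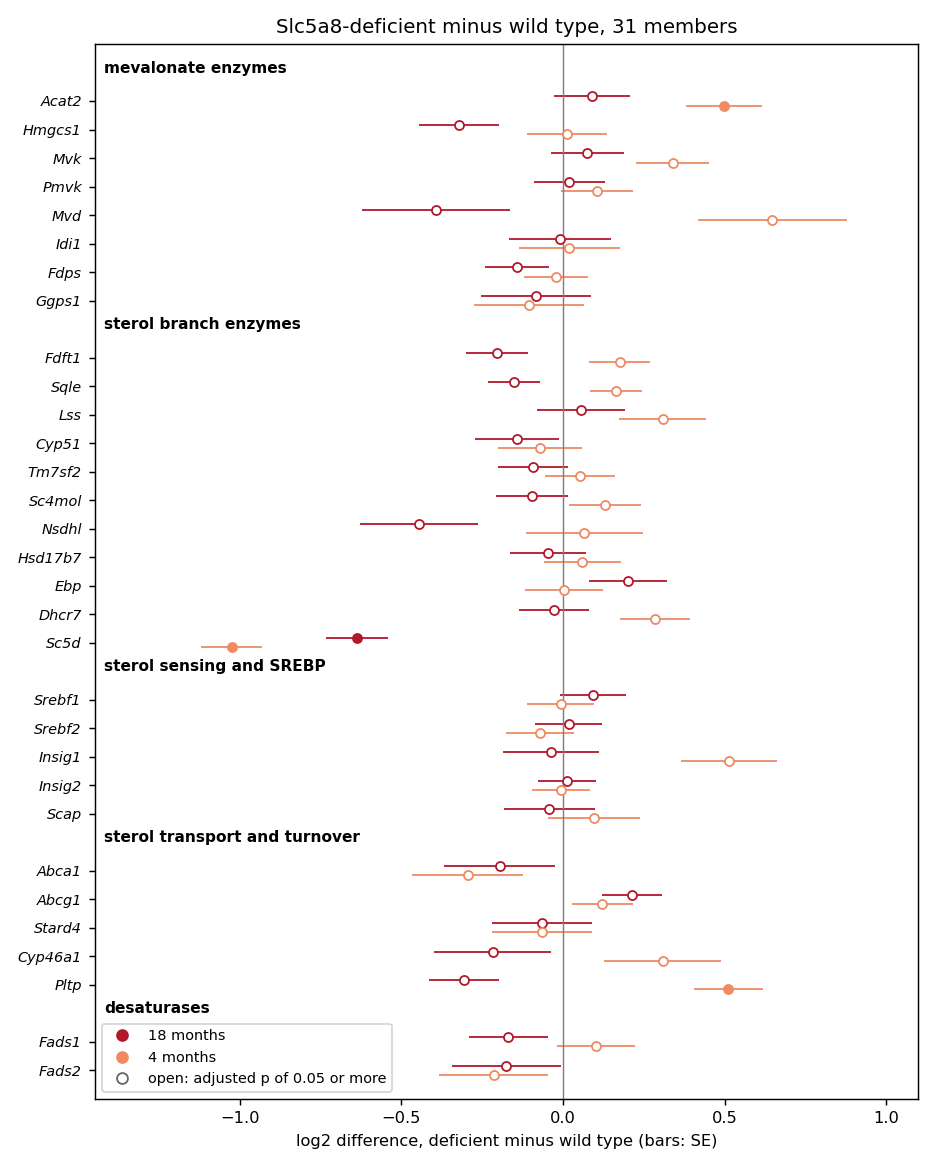
Log2 difference between Slc5a8-deficient and wild-type brains (x axis, deficient minus wild type, bars are standard errors) for the 31 members, in blocks by role, at 18 months (dark red) and 4 months (orange), with filled points where the adjusted p was under 0.05. Sc5d lies at -0.64 and -1.03, left of all others at each age, and Pltp and Acat2 are filled at 4 months only.

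Few members were called with age in either genotype. In deficient brains 1 of 31 members was called between 18 and 4 months, Pltp, which fell with age, against 2.38% of all genes, and 9 members had an unadjusted p under 0.05, where 20.9% of all genes did. In wild-type brains 0 of 31 were called by limma, against 0.421% of all genes, and 3 members had an unadjusted p under 0.05, where 6.31% of all genes did. With both genotypes averaged 0 members were called, against 1.6% of all genes, with 5 at an unadjusted p under 0.05, where 14.8% of all genes were. When limma weighted the arrays 2 members, Srebf2 and Tm7sf2, were called in that comparison, while all genes called went to 2515, against 369. The difference between the 2 age effects, the interaction of genotype and age, was called for 1 member, again Pltp, against 0.187% of all genes, and in 1 of the 16 fits with an array left out.

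In deficient brains 12 members had positive and 19 had negative age differences, with a median of -0.08 against -0.015 for all genes. In wild-type brains 25 were positive and 6 negative, with a median of 0.11 against 0.002 for all genes. In deficient mice the 18-month arrays lay wholly above the 4-month arrays for 3 members and below them for 4, where 17.9% of all genes did not overlap. In wild type they lay above for 5 members and below for 0, where 3.54% of all genes did not overlap. The genotype and age comparisons share groups of arrays, so the same 4 arrays enter several of these counts.

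**Figure D2:**
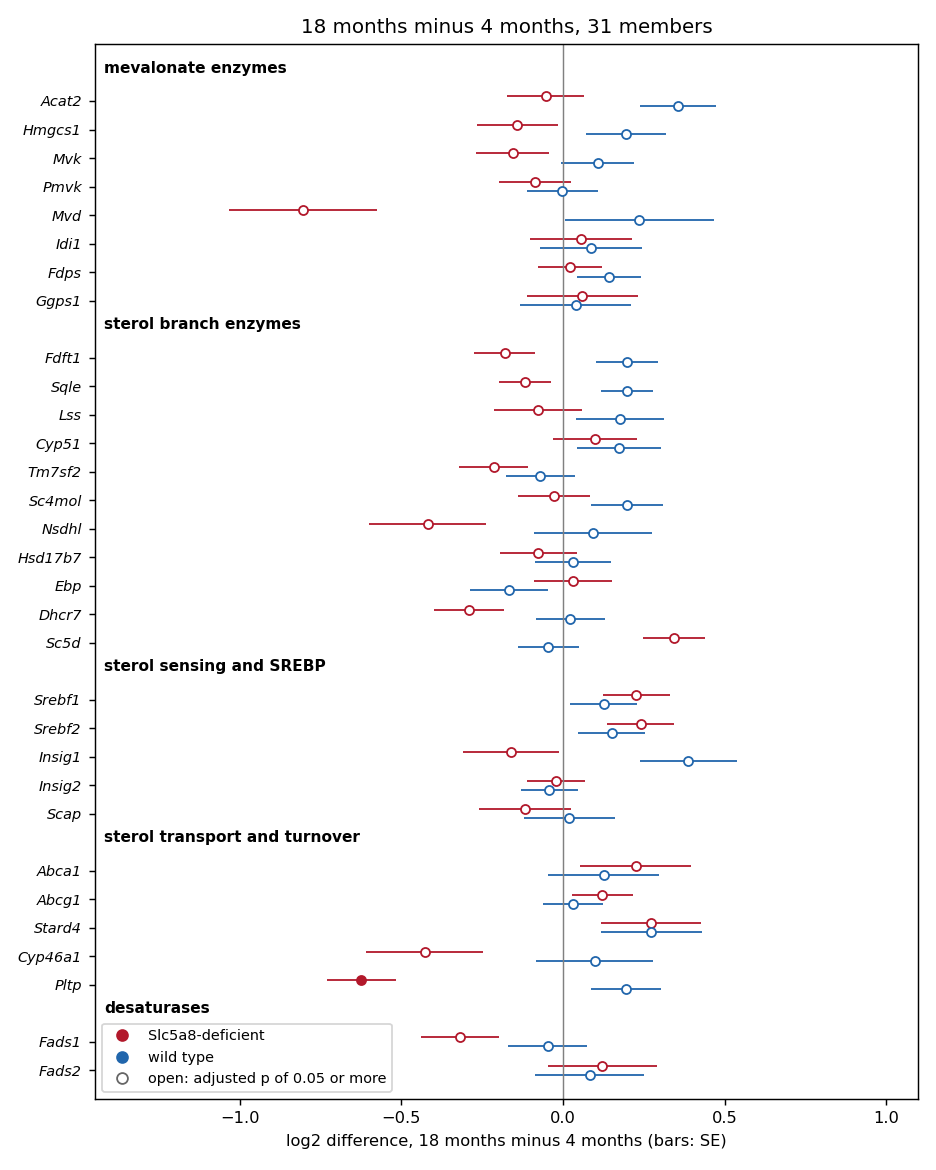
Log2 difference between 18 and 4 months (x axis, 18 months minus 4 months, bars are standard errors) for the 31 members, in blocks by role, in Slc5a8-deficient brains (red) and wild-type brains (blue), with filled points where the adjusted p was under 0.05. Pltp in deficient brains, at -0.62, is the 1 filled point, and Mvd in deficient brains lies farthest left at -0.81 with a wide error.

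**Figure D3:**
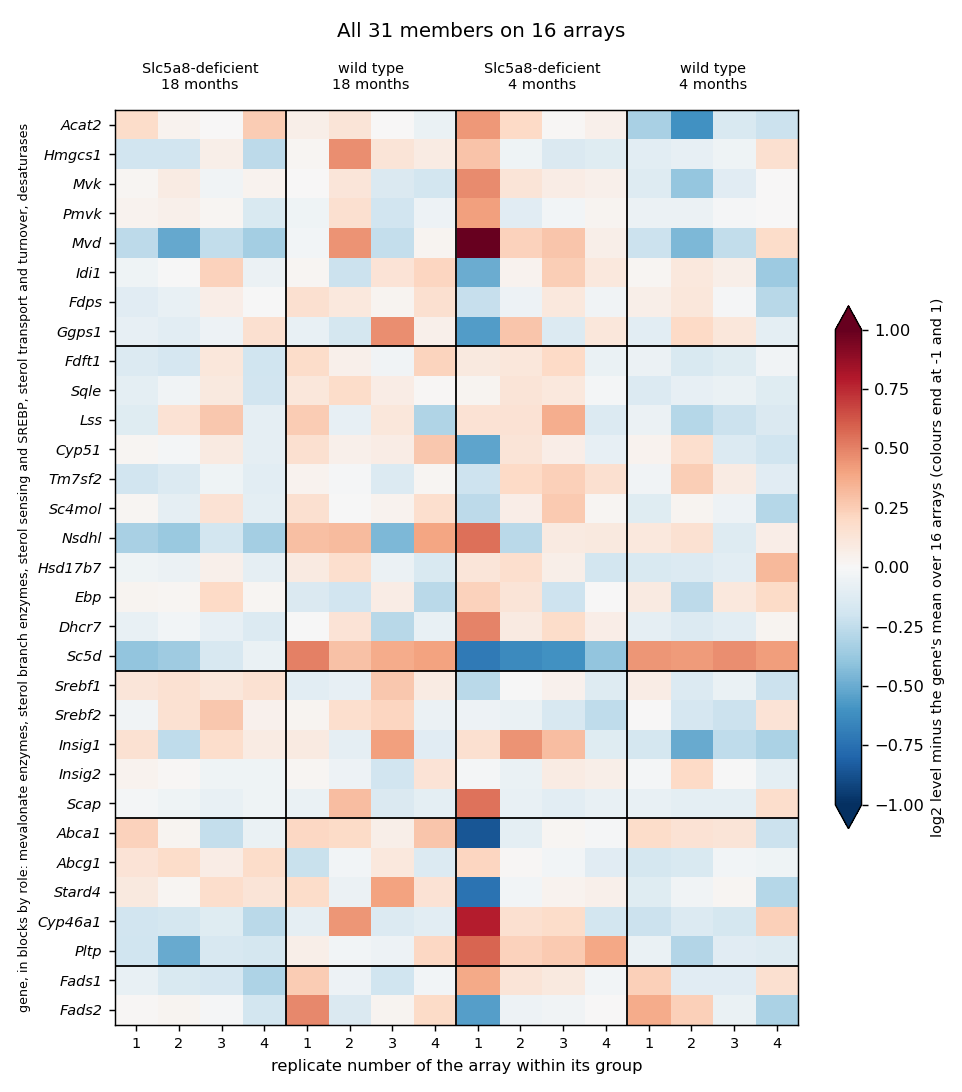
Level of each of the 31 members (rows, in blocks by role) on each of the 16 arrays (columns, by group and replicate number), as the log2 level minus the gene's mean over all arrays, with colours ending at -1 and 1. Sc5d is low on the 8 deficient arrays and high on the 8 wild-type arrays, and replicate 1 of the deficient 4-month group holds the deepest red (Mvd) and several of the deepest blues.

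The 8 mevalonate enzymes carry acetyl-CoA to farnesyl and geranylgeranyl diphosphate. At 18 months 0 of the 8 were called between genotypes, against 1.48% of all genes. There 1 had an unadjusted p under 0.05, where 9.91% of all genes did. At 4 months 1 was called, which was Acat2, against 1.53% of all genes. There 3 had an unadjusted p under 0.05, where 17.4% of all genes did. Acat2, the cytosolic thiolase that joins acetyl-CoA units to acetoacetyl-CoA, was read by 1 feature at chr17:13136482-13136541 on the minus strand (NCBI37/mm9). That probe is shown in lower case because the call rests on it alone.
Acat2 probe: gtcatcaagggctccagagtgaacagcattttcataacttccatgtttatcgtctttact

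Acat2 levels were -0.46, -0.70, -0.89 and -0.84 on the deficient 4-month arrays, against -1.22, -1.50, -1.04 and -1.11 on the wild-type 4-month arrays. All 4 deficient arrays thus lay above all 4 wild-type arrays. The difference was 0.50 ± 0.12 (SE), with a limma adjusted p of 0.0495. At 18 months the levels were -0.71, -0.86, -0.89 and -0.64 in deficient brains, against -0.83, -0.77, -0.90 and -0.96 in wild-type brains. These groups overlapped, and the difference was 0.09 ± 0.12 with a limma adjusted p of 0.923. The age difference in wild type, 0.36 ± 0.12, had the smallest p of any member there and was not called (limma adjusted p = 0.427). The call at 4 months was lost when any 1 of the 16 arrays was left out (limma adjusted p between 0.0538 and 0.127) and without the 3 arrays that stood apart (0.0828).

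Hmgcs1, the HMG-CoA synthase of the cytosol, was read by 2 features that lie close together, at chr13_random:114793-114852 and chr13_random:114558-114617 on the minus strand (mm9). The first is annotated to the RefSeq transcript of Hmgcs1 and the second to a cDNA clone, and both probes are shown because they differ in level and detection.
Hmgcs1 brighter probe: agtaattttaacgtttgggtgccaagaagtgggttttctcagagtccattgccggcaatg
Hmgcs1 dimmer probe: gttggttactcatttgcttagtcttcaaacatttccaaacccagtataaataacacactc

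On the brighter feature, which represents the gene in all counts here, Hmgcs1 levels at 18 months were 5.18, 5.18, 5.44 and 5.12 in deficient brains, against 5.40, 5.85, 5.51 and 5.46 in wild-type brains. One deficient array reached into the wild-type range. The difference of -0.32 ± 0.12 was not called (limma adjusted p = 0.334). At 4 months the levels were 5.66, 5.34, 5.23 and 5.26 in deficient brains, against 5.27, 5.29, 5.34 and 5.54 in wild-type brains, and the groups overlapped, with a difference of 0.01 ± 0.12, or -0.08 without the array that stood apart.

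On the dimmer feature the levels at 18 months were -5.17, -5.74, -5.56 and -5.62 in deficient brains, against -4.85, -4.75, -4.61 and -4.62 in wild-type brains. The groups did not overlap there. The feature lay near the detection limit, well above background on 2 of 4 deficient and 4 of 4 wild-type arrays at 18 months and on 3 of 4 arrays of each genotype at 4 months. It passed the filter only through the wild-type 18-month group, where it was highest, so its levels are given as a description without a test. At 4 months they averaged -4.88 ± 0.17 in deficient and -5.06 ± 0.27 in wild-type brains (SD, n = 4 each).

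**Figure D4:**
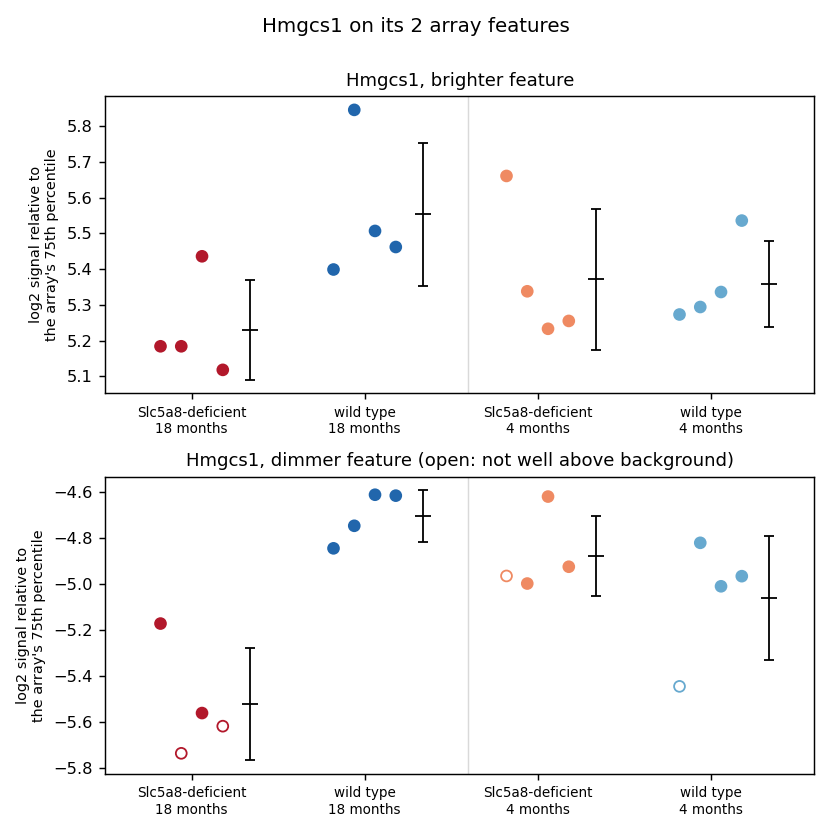
Hmgcs1 level (y axis, log2 signal relative to the array's 75th percentile) on its brighter feature (upper panel) and its dimmer feature (lower panel) for each array of the 4 groups, with black bars for the mean and SD and open points where the feature was not well above background. On the dimmer feature the deficient 18-month arrays lie between -5.74 and -5.17, below the wild-type 18-month arrays at -4.85 to -4.61, while 2 of them were not well above background.

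Mvd, the decarboxylase that makes isopentenyl diphosphate, had the widest spread of the group. Its levels at 4 months were 2.01, 0.93, 0.98 and 0.76 on the deficient arrays, against 0.49, 0.26, 0.46 and 0.89 on the wild-type arrays. The highest of these, 2.01, is the array that stood apart, and the groups overlapped through a wild-type array at 0.89. At 18 months the levels were 0.44, 0.20, 0.46 and 0.37 in deficient brains, against 0.68, 1.16, 0.47 and 0.74 in wild-type brains. There the deficient group lay wholly below the wild-type group, by a narrow gap. None of the differences of Mvd was called: it was 0.65 ± 0.23 between genotypes at 4 months (limma adjusted p = 0.167), or 0.37 without the array that stood apart, -0.39 ± 0.23 at 18 months (0.669) and -0.81 ± 0.23 with age in deficient brains (0.0748). Its interaction of -1.04 ± 0.33 was not called (limma adjusted p = 0.293). Without the 3 arrays that stood apart the age difference in deficient brains was smaller, at -0.53, and was called (limma adjusted p = 0.0227). With replicate 1 of the deficient 4-month group alone left out it was also -0.53 and was not called (0.118).

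The other mevalonate enzymes differed less. Mvk, mevalonate kinase, averaged 3.67 ± 0.20 in deficient and 3.33 ± 0.17 in wild-type brains at 4 months (SD, n = 4 each), without overlap, and its difference of 0.34 ± 0.11 was not called (limma adjusted p = 0.142). Its second feature had a difference of 0.56 in the same comparison, and 0.30 without the array that stood apart. Pmvk, the kinase of the next step, Idi1, the isomerase of isopentenyl diphosphate, Fdps, which makes farnesyl diphosphate, and Ggps1, which makes geranylgeranyl diphosphate, had genotype differences between -0.14 and 0.10 at the 2 ages. Without the array that stood apart those at 4 months were -0.01 for Pmvk, 0.18 for Idi1, 0.04 for Fdps and 0.06 for Ggps1, so that 3 of them turned in sign. These are values of the brightest features. A dimmer feature of Ggps1 averaged 0.186 in deficient and 0.399 in wild-type brains at the older age. The groups did not overlap there, at 0.056 to 0.369 against 0.371 to 0.475. At 4 months that feature averaged 0.126 and 0.356, with overlap. The other dimmer feature of Ggps1 averaged 1.11 and 1.224 at the older age, and 1.132 and 1.202 at 4 months, with overlap at both. These levels are a description without a test. In deficient brains 3 of the 8 mevalonate enzymes had positive age differences, with a median of -0.07, against 7 of 8 in wild-type brains, with a median of 0.13. Their interactions were negative for 7 of 8, with a median of -0.19 against -0.013 for all genes. Of these 0 of 8 were called, against 0.187% of all genes, with 2 at an unadjusted p under 0.05, where 10.6% of all genes were.

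The 11 enzymes of the sterol branch run from squalene to cholesterol. Sc5d, the sterol C5-desaturase that acts near the end of the route, was the member with the largest genotype difference at 18 months and at 4 months. Its 1 feature lies at chr9:42062857-42062916 on the minus strand (mm9), annotated to the RefSeq transcript of Sc5d. Its probe is shown because both calls rest on it.
Sc5d probe: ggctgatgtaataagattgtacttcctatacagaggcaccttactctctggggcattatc

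At 18 months Sc5d levels were 1.56, 1.60, 1.80 and 1.90 in deficient brains, against 2.47, 2.25, 2.33 and 2.36 in wild-type brains. At 4 months they were 1.25, 1.32, 1.35 and 1.56 in deficient brains, against 2.40, 2.39, 2.42 and 2.38 in wild-type brains. At neither age did the groups overlap, and the 4 wild-type arrays at 4 months lay close together (SD 0.019). Sc5d fell by 0.64 ± 0.10 at 18 months (limma adjusted p = 0.00236) and by 1.03 ± 0.10 at 4 months (limma adjusted p = 5.39e-05), to 0.643 and 0.491 times the wild-type signal. Averaged over both ages the difference was -0.83 ± 0.07 (limma adjusted p = 3.5e-06). All 3 calls were kept when any 1 of the 16 arrays was left out.

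Within deficient brains Sc5d was higher at 18 than at 4 months without overlap, by 0.34 ± 0.10, which was not called (limma adjusted p = 0.07). In wild-type brains the age difference was -0.05 ± 0.10. The interaction of 0.39 ± 0.14 was not called either (limma adjusted p = 0.327). Sc5d lies on chromosome 9 among genes that also differed between genotypes: of 46 other genes tested within 2 Mb on either side, 3 were called higher and 3 lower at 18 months, and 1 higher and 4 lower at 4 months. In the same kind of window around Acat2 on chromosome 17, 6 of 52 genes were called higher and 1 lower at 4 months. Around Pltp on chromosome 2 the counts at 4 months were 0 higher and 1 lower of 76 genes. Of all genes tested, 1.48% were called between genotypes at 18 months and 1.53% at 4 months. The part of these neighbourhoods in the results was not tested.

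**Figure D5:**
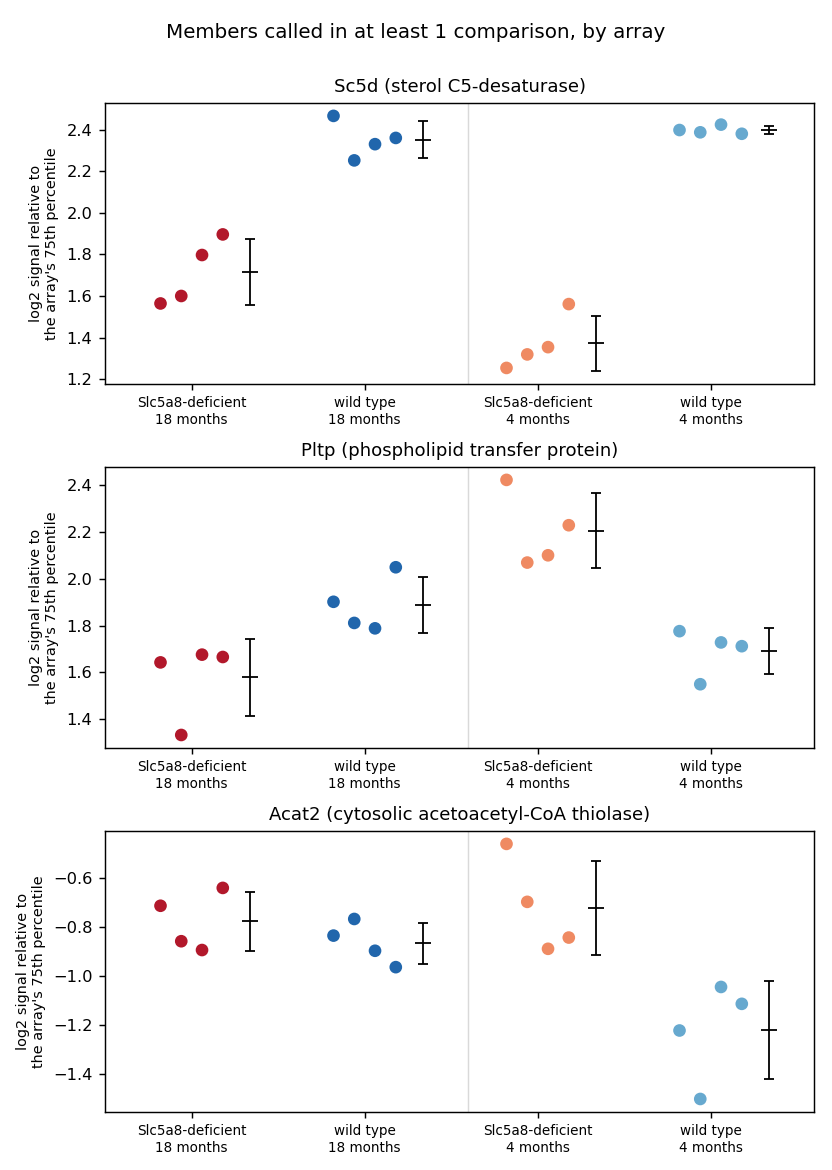
Level (y axis, log2 signal relative to the array's 75th percentile) of Sc5d, Pltp and Acat2 on each array (points) of the 4 groups, with black bars for the mean and SD of each group. The 8 deficient arrays of Sc5d lie between 1.25 and 1.90, below all 8 wild-type arrays at 2.25 to 2.47, while Pltp is highest in the deficient 4-month group and lowest in the deficient 18-month group.

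The other 10 sterol branch enzymes were not called in any comparison. Sqle, squalene epoxidase, had levels of 3.18, 3.25, 3.38 and 3.09 in deficient brains at 18 months, against 3.31, 3.41, 3.39 and 3.27 at 4 months. The ages overlapped, and the difference was -0.12 ± 0.08 (limma adjusted p = 0.407). In wild-type brains Sqle was at 3.40, 3.47, 3.36 and 3.30 at 18 months, against 3.15, 3.20, 3.22 and 3.16 at 4 months, without overlap and with a difference of 0.20 ± 0.08 (0.671). Fdft1, squalene synthase, had an age difference of -0.18 ± 0.10 in deficient and 0.20 ± 0.10 in wild-type brains. Its second feature had age differences of 0.23 and 0.11, so the features of Fdft1 disagreed in sign in deficient brains. That second feature was far dimmer, at -3.89 ± 0.34 at 18 months and -4.12 ± 0.12 at 4 months in deficient brains, and the ages overlapped. The brighter one was at 2.22 ± 0.14 and 2.40 ± 0.11 (SD, n = 4 each).

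Lss, which closes squalene epoxide to lanosterol, and Dhcr7, a reductase of the last steps, had genotype differences of 0.31 ± 0.14 and 0.29 ± 0.11 at 4 months (limma adjusted p = 0.261 and 0.194). Dhcr7 did so without overlap between the groups, and had 0.19 without the array that stood apart. Nsdhl, which takes part in removing the methyl groups at C4, averaged -0.63 ± 0.08 in deficient and -0.19 ± 0.39 in wild-type brains at 18 months (SD, n = 4 each). The wild-type spread came mostly from replicate 3 at -0.77, and without that array Nsdhl was called lower in deficient brains. With all arrays its difference was -0.45 ± 0.18 (limma adjusted p = 0.382), and its second feature had -0.14.

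Cyp51, the lanosterol demethylase, Tm7sf2, a C14 sterol reductase, Sc4mol (now Msmo1), the C4-methyl oxidase, Hsd17b7, the 3-ketosteroid reductase, and Ebp, the sterol isomerase, had genotype differences between -0.14 and 0.20, none of them called. Without the array that stood apart those at 4 months were 0.07 for Cyp51, 0.15 for Tm7sf2, 0.22 for Sc4mol, 0.03 for Hsd17b7 and -0.06 for Ebp, where all arrays gave -0.07, 0.05, 0.13, 0.06 and 0.004. The second feature of Tm7sf2 was at -0.16, -0.18, -0.11 and -0.23 in deficient brains at 18 months, against 0.37, 0.19, 0.14 and 0.16 at 4 months. In the fit of all kept features it was called lower with age in deficient brains, at -0.38 ± 0.09 (limma adjusted p = 0.0369), and was not called without the array that stood apart (-0.33, limma adjusted p = 0.0663). The brighter feature of Tm7sf2 gave -0.22 ± 0.11 (limma adjusted p = 0.267). Over all 19 synthesis enzymes the interaction was negative for 16 and positive for 3, with a median of -0.23 against -0.013 for all genes. Of the 19, 0 were called, against 0.187% of all genes, with 5 at an unadjusted p under 0.05, where 10.6% of all genes were.

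The 5 genes of sterol sensing were called in 0 comparisons. Insig1, which retains Scap and its cargo in the endoplasmic reticulum and is itself a target of the Srebf factors, came closest. Its levels at 4 months were -0.73, -0.44, -0.58 and -1.02 in deficient brains, against -1.07, -1.40, -1.15 and -1.21 in wild-type brains. The groups did not overlap, and the difference of 0.51 ± 0.15 missed the threshold (limma adjusted p = 0.0979). At 18 months they were -0.74, -1.15, -0.72 and -0.81 in deficient brains, against -0.81, -0.98, -0.48 and -1.01 in wild-type brains, with overlap. In wild type Insig1 was higher at 18 than at 4 months without overlap, by 0.39 ± 0.15 (limma adjusted p = 0.578).

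Srebf1 and Srebf2, the transcription factors themselves, were higher at 18 than at 4 months in deficient brains without overlap. Srebf1 averaged -1.16 ± 0.02 at 18 months and -1.39 ± 0.14 at 4 months, and Srebf2 -0.22 ± 0.13 and -0.46 ± 0.10 (SD, n = 4 each). Neither difference was called (0.23 ± 0.10 and 0.24 ± 0.10, limma adjusted p = 0.227 and 0.21), and in a comparison in which 17.9% of all genes did not overlap the lack of overlap is common. The second feature of Srebf2 had an age difference of -0.09 there, and 0.09 without the array that stood apart. Their genotype differences lay between -0.07 and 0.09. Insig2, the second retention protein, differed on its brighter feature by 0.01 at 18 months and -0.01 at 4 months, each ± 0.09. Scap differed by -0.04 and 0.10, each ± 0.14. Without the array that stood apart the 4-month differences were -0.06 for Scap, 0.004 for Insig2 and 0.05 for Srebf1, which had -0.01 with it. The dimmer feature of Insig2 averaged 0.645 in deficient and 0.428 in wild-type brains at 18 months, and 0.227 and 0.372 at 4 months. The genotypes overlapped there at both ages. Between the ages that feature did not overlap in deficient brains, at 0.62 to 0.668 against -0.554 to 0.559.

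Of the 5 genes of sterol transport and turnover, Pltp was called. Pltp transfers phospholipids between lipoprotein particles. Its 1 feature lies at chr2:164665022-164665081 on the minus strand (mm9), annotated to the RefSeq transcript of Pltp, and its probe is shown because the calls rest on it.
Pltp probe: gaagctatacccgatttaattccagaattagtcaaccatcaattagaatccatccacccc

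Pltp levels at 4 months were 2.42, 2.07, 2.10 and 2.23 in deficient brains, against 1.78, 1.55, 1.73 and 1.71 in wild-type brains. The deficient arrays lay wholly above, and Pltp rose by 0.51 ± 0.11 (limma adjusted p = 0.031), to 1.43 times the wild-type signal. At 18 months the levels were 1.64, 1.33, 1.68 and 1.67 in deficient brains, against 1.90, 1.81, 1.79 and 2.05 in wild-type brains. Here the deficient arrays lay wholly below, but the difference of -0.31 ± 0.11 was not called (limma adjusted p = 0.257). With age Pltp fell in deficient brains, by 0.62 ± 0.11 (limma adjusted p = 0.00957), and the arrays of the 2 ages did not overlap. In wild-type brains the age difference was 0.20 ± 0.11 (limma adjusted p = 0.942).

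The interaction of Pltp, a test of whether the genotype difference itself differed between ages, was -0.82 ± 0.15 (limma adjusted p = 0.0457). The fall with age in deficient brains was called when any 1 of the 16 arrays was left out, and the rise at 4 months in 10 of those 16 fits, but not in the fit without the array that stood apart (0.44, limma adjusted p = 0.0559). The interaction was called in 1 of the 16, the fit without the array that stood apart. Without all 3 arrays that stood apart the differences were 0.45 at 4 months (limma adjusted p = 0.0742) and -0.78 for the interaction (0.0831), neither called.

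Cyp46a1, the neuronal enzyme that hydroxylates cholesterol so that it can leave the brain, had an age difference of -0.43 ± 0.18 in deficient brains (limma adjusted p = 0.2), or -0.24 without the array that stood apart, and 0.10 ± 0.18 in wild type. Its level in the deficient 4-month group ran from 0.57 to 1.55, with the highest value on the array that stood apart. Abca1 and Abcg1, exporters that load cholesterol onto lipoprotein particles, had opposite signs in the fit of all arrays: Abca1 differed between genotypes by -0.20 ± 0.17 at 18 months and -0.30 ± 0.17 at 4 months, and Abcg1 by 0.21 ± 0.09 and 0.12 ± 0.09. Without the array that stood apart the 4-month differences were -0.09 for Abca1 and 0.06 for Abcg1. Stard4, a carrier of sterols through the cytosol, had genotype differences of -0.07 ± 0.16 at both ages and age differences of 0.27 ± 0.16 in both genotypes. Without that array its 4-month genotype difference turned to 0.12 and its age difference in deficient brains was 0.08. None of these was called. The dimmer feature of Stard4 averaged -3.803 in deficient and -3.835 in wild-type brains at 18 months. At 4 months it averaged -3.771 and -4.005, and the genotypes overlapped at both ages.

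The 2 desaturases, Fads1 and Fads2, put double bonds into long fatty acids and are also targets of the Srebf factors. Fads1 averaged 1.82 ± 0.10 at 18 months and 2.14 ± 0.17 at 4 months in deficient brains (SD, n = 4 each), without overlap, and the difference of -0.32 ± 0.12 was not called (limma adjusted p = 0.164). Fads2 had genotype differences of -0.18 ± 0.17 and -0.22 ± 0.17 at 18 and 4 months on its brighter feature, which is annotated to a cDNA clone. Its second feature, annotated to the RefSeq transcript, gave -0.28 and 0.18, so the features of Fads2 differed in sign at 4 months. Without the array that stood apart the 4-month values were -0.09 and 0.08.

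Averaged over the 31 members, with each gene set to its own mean over the 16 arrays, the level ran from -0.08 to 0.02 on the deficient 18-month arrays, against 0.02 to 0.08 on the wild-type 18-month arrays. At 4 months it ran from -0.02 to 0.06 on the deficient arrays, against -0.07 to -0.03 on the wild-type arrays. These list means came within 0.007 of overlapping at 18 months and within 0.003 at 4 months, and they are a description without a test. Those of the 19 synthesis enzymes overlapped at 18 months, at -0.10 to 0.03 on the deficient arrays, against -0.001 to 0.10 on the wild-type arrays, and those of the sterol branch enzymes overlapped at both ages. Of the marker lists, microglial genes had a mean level of -0.15 to -0.11 in deficient and 0.19 to 0.35 in wild-type brains at 18 months. Oligodendrocyte and myelin genes had negative age differences for 12 of 15 in deficient brains, with 1 called higher and 2 lower, against 2.38% of all genes called. In wild type 12 of 15 were negative too, with 0 called, against 0.421% of all genes. Choroid plexus genes had negative genotype differences for 8 of 8 at both ages, with medians of -0.24 at 18 months and -0.77 at 4 months. Of these 0 were called, against 1.48% of all genes at 18 months and 1.53% at 4 months. Of 10 Hox genes of the spinal cord and caudal hindbrain, 1 was well above background on all arrays, and 8 others were tested. At 18 months 6 of those 8 were well above background on all deficient arrays, against 0 of 8 on all wild-type arrays, and at 4 months 8 of 8, against 6 of 8. Of 9 pituitary genes 2 were well above background on all arrays, and 4 others were tested, of which 0 were so on all arrays of the 18-month groups, against 3 and 4 on all deficient and all wild-type arrays at 4 months. No size is given for genes at background. The part of these cells and regions in the results on the members was not tested. In whole-brain RNA, fewer cells of a type and less RNA per cell cannot be told apart.

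Alongside, 33 other genes of sterol and fatty acid metabolism were counted, and all 33 were tested. None was called by limma between genotypes at 18 months, at 4 months or averaged over both ages, against 1.48%, 1.53% and 3.18% of all genes. At an unadjusted p under 0.05 there were 3 at 18 months, 6 at 4 months and 7 averaged over both ages, where 9.91%, 17.4% and 15.4% of all genes were. Lcat, which esterifies cholesterol on lipoproteins, was at -0.17, -0.22, 0.11 and -0.20 in deficient brains at 18 months, against 0.45, 0.60, 0.51 and 0.80 at 4 months. The ages did not overlap, and Lcat fell with age in deficient brains by 0.71 ± 0.12 (limma adjusted p = 0.00821), a call kept when any 1 of the 16 arrays was left out. Elovl5, a fatty acid elongase, fell with age there by 0.37 ± 0.09 (limma adjusted p = 0.0489), and Npc1, which exports cholesterol from lysosomes, rose by 0.30 ± 0.07 with both genotypes averaged (limma adjusted p = 0.0421). With single arrays left out Elovl5 was called in 0 and Npc1 in 2 of 16 fits. Lcat was called lower with both genotypes averaged too, at -0.45 ± 0.08 (limma adjusted p = 0.0127), and in 16 of 16 such fits. Of the 33 genes, 2 were thus called with age in deficient brains, against 2.38% of all genes. With both genotypes averaged 1 was called higher and 1 lower, against 1.6% of all genes called. In wild-type brains 0 of the 33 were called with age, against 0.421% of all genes, with 5 at an unadjusted p under 0.05, where 6.31% of all genes were.

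RefSeq promoter windows (GRCm38.p6, mostly upstream of the start of transcription and ending shortly after it) were at hand for 25 of the 31 members, as 33 windows. They were searched on both strands for the sterol response element TCACNCCAC, where N is any base, and for the CCAAT box, CCAAT. The sterol response element was found in 1 of the 25 members, Hmgcs1, and in 1.44% of all 27025 genes of the table. A CCAAT box was found in 21 of the 25 members, against 41.1% of all genes, and in 22 of the 33 windows, against 37.4% of all windows. A match is a description of the letters and not of a bound site. The window of Hmgcs1 (chr13:119690101-119690400, plus strand) is shown because it holds the sterol response element, and that of Sc5d (chr9:42264251-42264550, minus strand) because Sc5d fell. Both are written in the direction of transcription, with matches on either strand in capitals.
Hmgcs1 promoter: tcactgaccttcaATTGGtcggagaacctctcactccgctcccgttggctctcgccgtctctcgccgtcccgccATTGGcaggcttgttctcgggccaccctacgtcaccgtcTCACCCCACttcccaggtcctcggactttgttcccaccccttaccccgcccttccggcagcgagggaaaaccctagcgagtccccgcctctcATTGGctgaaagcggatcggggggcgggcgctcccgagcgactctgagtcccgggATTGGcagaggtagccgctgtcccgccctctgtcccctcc
Sc5d promoter: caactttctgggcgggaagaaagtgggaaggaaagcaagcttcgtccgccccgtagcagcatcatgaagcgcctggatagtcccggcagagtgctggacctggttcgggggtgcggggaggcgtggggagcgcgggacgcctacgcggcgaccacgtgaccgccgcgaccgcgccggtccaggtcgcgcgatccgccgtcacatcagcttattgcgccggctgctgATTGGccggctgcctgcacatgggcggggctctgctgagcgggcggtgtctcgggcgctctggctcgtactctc

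In the Hmgcs1 window the sterol response element is followed downstream, and preceded upstream, by CCAAT boxes on the opposite strand (written ATTGG), 4 in all. The Sc5d window holds 1 CCAAT box, also on the opposite strand, and no match to the sterol response element as searched. Mvd, Insig1 and Pltp had a CCAAT box too, and Acat2 had neither motif in its window.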

How the data were processed

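Whole-brain RNA of 16 samples was labelled with Cy3 and hybridised to 1-colour Agilent arrays, per the labels' protocols. Per the file headers, Agilent Feature Extraction 10.7.3.1 made the processed intensity, with background subtracted and no scaling between arrays. The authors' deposited table holds log2 values, which ranked features as the raw median intensity did and had medians between 6.606 and 6.622. Its scale is inferred and it served only as an alternative. Limma is named, with no version, in the submitters' processing notes.

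From the intensities, outlier spots were left out, spots of a probe averaged, and the log2 of each array's 75th percentile subtracted. Features were kept where 1 or more groups had them well above background on each of 4 arrays (33072), and the one with the highest mean stood for its gene. A means model of 4 groups was fitted with limma 3.58.1 in R 4.3.3 to 16 arrays, with eBayes and Benjamini-Hochberg adjustment over 23030 genes at 0.05. Features were fitted likewise over all kept features. The number of arrays limits the precision. The fit was tested on simulated data.

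The members, the lists and the marker genes were chosen with earlier results of these data known. Array values are given for members called in any of 7 contrasts and for the 3 with the smallest p in each contrast of 1 age, 1 genotype or the interaction; the rest are given by range, counts or group values. Strain and age stand under each other's tags in the labels. Alternatives were normexp background correction with an offset of 50, quantile normalization, the deposited table, no filter, a stricter filter, the mean of a gene's features, the replicate number as a block, fits of the compared groups only, array weights, each array left out in turn and, chosen after seeing the data, 3 arrays left out together.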

Additional observations from a re-analysis of the deposited data

Results flagged for a closer look

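Within the 4 arrays of a group, 13 of 124 combinations of member and group had an array set far from the other 3, by Dixon's ratio of the gap to the range. Chance alone flags about 1 in 20 groups. Of these, 5 fell on replicate 1 of the deficient 4-month group. There Scap was at 5.06, against 4.41 to 4.44 on the other 3 arrays, Tm7sf2 at 2.13 against 2.50 to 2.57, Abca1 at -0.50 against 0.26 to 0.38, Stard4 at 0.37 against 1.07 to 1.15 and Fads2 at -0.46 against 0.04 to 0.10. In the deficient 18-month group Pmvk was at 4.57 on replicate 4 (others 4.74 to 4.77), Ebp at 4.28 on replicate 3 (others 4.10 to 4.11) and Pltp at 1.33 on replicate 2 (others 1.64 to 1.68). In the wild-type 18-month group Nsdhl was at -0.77 on replicate 3 (others -0.03 to 0.07) and Cyp46a1 at 1.19 on replicate 2 (others 0.62 to 0.66). In the wild-type 4-month group replicate 4 held Scap at 4.69 (others 4.41 to 4.43), Abca1 at 0.14 (others 0.49 to 0.54) and Hsd17b7 at 0.02 (others -0.45 to -0.41).

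The genotype difference of Pltp differed between 18 and 4 months by a test of the difference itself, with an interaction of -0.82 and a limma adjusted p of 0.0457. The call held in 1 of 16 fits with an array left out, where the adjusted p lay between 0.0448 and 0.118.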

How the results depend on the processing

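Of the 217 differences of the 31 members in 7 comparisons, 84 changed sign under 1 or more alternatives, each at most 0.18 in size with all arrays. Of the 16 with array values 0 did, but they were chosen by their small p in these same data. Of the 49 differences over 2 standard errors 0 did either, but they too were chosen by their size in these same data. The alternatives refit the same arrays, so a change of sign in such differences was unlikely beforehand. The genotype calls of Sc5d held in all alternatives. The count of members called at 18 months was 1 with all arrays and 2 with the mean of a gene's features (Hmgcs1 added, at -0.57, by its dimmer feature, which was kept only through the wild-type 18-month group, where it was highest), and between 1 and 2 with single arrays left out, where Nsdhl was added without wild-type replicate 3. At 4 months it was 3, and 1 (Sc5d) without the filter, with the compared groups only and without the 3 arrays that stood apart. It was 9 with array weights, and between 1 and 2 with single arrays left out. All genes called at 4 months were 352 in the main fit, 146 without the filter, 74 with the compared groups only and 268 without the 3 arrays. With age in deficient brains the count of members was 1, against 2 with the mean of features (Tm7sf2 added), 0 with the compared groups only, 5 with array weights and 2 without the 3 arrays (Mvd added). All genes called there were 547, against 675 with the mean of features and 118 with the compared groups only. They were 3103 with array weights and 679 without the 3 arrays. Averaged over genotypes the count of members was 0, and 2 with array weights. For the interaction it was 1, against 0 without the filter, 3 with array weights, 0 without the 3 arrays and between 0 and 1 with single arrays left out. All genes called for the interaction were 43, against 22 without the filter, 832 with array weights and 53 without the 3 arrays. The causes of the falls and rises in these counts were not tested. With array weights all genes called at 4 months went to 4166, against 352.

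Replicate numbers did not pair the samples: deviations of same-numbered arrays correlated between -0.444 and 0.274 over 24 pairs, 7 of them over 0.1. With the replicate number as a block, the calls of Sc5d and Pltp held and that of Acat2 at 4 months was lost (limma adjusted p = 0.0942). All genes called at 4 months were then 192. The call of Acat2 was also lost with normexp (0.092), with the deposited table (0.0517), without the filter (0.109) and with the compared groups only (0.232), and that of Pltp at 4 months without the filter (0.0741) and with the compared groups only (0.169). The interaction of Pltp had an adjusted p of 0.117 without the filter, and its age difference in deficient brains one of 0.0728 with the compared groups only.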
